A study of Mus musculus with 12 samples.

Results

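Immediate-early genes are transcribed within minutes of a growth factor, stress or damage signal, without new protein synthesis, and 10 of them were followed here among the 52636 genes in the deposited count tables of 2153L mouse tumors. They are Fos, Fosb, Jun and Junb, which encode subunits of the AP-1 transcription factor, Atf3, which encodes a stress-induced partner of the same basic leucine zipper class, the zinc-finger factors Egr1, Klf4 and Klf6, the nuclear protein gene Ier2 and Rhob, which encodes a small GTPase. The list was drawn up with earlier results of these libraries known. Klf6 and Rhob were selected on their measured rise in p53ERTAM tumors, so their levels in p53ERTAM tumors are given as a description, with no test. The other 8 were named as genes of the pathway. All 10 were found by symbol and all 10 passed the filter on low counts.

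AP-1 is a dimer, either of 2 Jun proteins or of a Jun protein with a Fos or ATF protein, and it binds short palindromes in DNA. Growth factor and stress signals reach the genes through MAP kinases, which act on serum response factor with its ternary complex partners and on CREB and ATF proteins already sitting at the promoters. Rapid decay of the mRNAs and induced inhibitors such as the DUSP phosphatases then end the pulse. In mammary tumors this response is known to be set off by growth factors, by cytotoxic drugs and also by the handling of tissue.

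The tumor, 2153L, is a line from a genetically engineered mouse, labelled as triple-negative breast cancer and transplanted into female BALB/c mice at the mammary fat pad. All tumors came from this line, so the groups are 1 tumor model. The tumors carried either an empty vector (EV) or p53ERTAM, a p53 protein fused to an estrogen receptor domain that makes it active in the presence of tamoxifen, and which mice received tamoxifen is not given in the sources used here. Each kind was treated for 8 days with vehicle or with the combination, called combo below, of ORIN1001 at 150 mg/kg daily and docetaxel at 20 mg/kg weekly. ORIN1001 blocks the RNase of IRE1α, a sensor of unfolded proteins in the endoplasmic reticulum, and docetaxel is a drug that stabilises microtubules. Bulk RNA was sequenced from 3 libraries in each of the 4 groups, EV vehicle, EV combo, p53ERTAM vehicle and p53ERTAM combo. Nothing in the labels says that replicates were separate animals, so the p-values measure the spread between these libraries, which may be technical.

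Libraries held 13484873 to 24424964 counts. Gm26917, a noncoding RNA gene, took 10.7% to 11.1% of the counts in the 3 EV combo libraries and 0.133% to 1.10% in the other 9, and protein-coding genes took 80.9% to 81.7% against 86.7% to 95.8%. This make-up of the EV combo libraries touches each comparison that uses them, and its part in the results was not tested. Cdkn1a, the p21 gene and a standard p53 target, stood at means of 32.7 and 33.8 CPM (counts scaled to library size) in EV vehicle and EV combo and at 122 and 180 CPM in p53ERTAM vehicle and p53ERTAM combo. The 10 epithelial and mammary markers were detected in every group, with a summed level of 1619 to 4098 CPM, and in bulk tissue fewer cells of a type and less RNA per cell cannot be told apart.

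The 5 genes that stood highest in p53ERTAM over EV tumors under combo, and Fos and Jun as the founding AP-1 genes, are shown first by the 250 bases before the start of transcription (RefSeq, GRCm38.p6, 5′ to 3′ on the gene's strand). The windows are Rhob chr12:8500010-8500259 (minus strand), Klf6 chr13:5861239-5861488 (plus), Fosb chr7:19310046-19310295 (minus), Atf3 chr1:191183334-191183583 (minus), Klf4 chr4:55532476-55532725 (minus), Fos chr12:85473640-85473889 (plus) and Jun chr4:95052223-95052472 (minus). Capitals mark matches, on either strand, to the motifs searched.
Rhob: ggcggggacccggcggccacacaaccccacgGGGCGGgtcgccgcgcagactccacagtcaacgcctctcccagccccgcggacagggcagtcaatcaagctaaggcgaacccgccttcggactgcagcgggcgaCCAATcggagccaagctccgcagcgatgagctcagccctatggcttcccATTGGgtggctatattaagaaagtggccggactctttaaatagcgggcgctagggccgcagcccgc
Klf6: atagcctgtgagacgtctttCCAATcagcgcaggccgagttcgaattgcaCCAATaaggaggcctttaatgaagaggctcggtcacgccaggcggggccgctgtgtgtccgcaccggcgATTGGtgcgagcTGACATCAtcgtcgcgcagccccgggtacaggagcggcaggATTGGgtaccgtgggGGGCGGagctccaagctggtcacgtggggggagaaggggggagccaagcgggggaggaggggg
Fosb: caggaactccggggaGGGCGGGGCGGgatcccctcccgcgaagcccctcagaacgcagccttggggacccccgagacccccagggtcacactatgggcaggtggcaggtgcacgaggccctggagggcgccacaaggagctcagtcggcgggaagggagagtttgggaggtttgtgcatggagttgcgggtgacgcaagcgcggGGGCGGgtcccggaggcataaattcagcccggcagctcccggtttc
Atf3: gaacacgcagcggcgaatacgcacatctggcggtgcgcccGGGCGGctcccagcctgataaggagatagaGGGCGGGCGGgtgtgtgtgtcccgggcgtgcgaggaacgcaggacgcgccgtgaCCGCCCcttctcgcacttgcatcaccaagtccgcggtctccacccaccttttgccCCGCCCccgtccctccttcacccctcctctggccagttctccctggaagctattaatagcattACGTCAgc
Klf4: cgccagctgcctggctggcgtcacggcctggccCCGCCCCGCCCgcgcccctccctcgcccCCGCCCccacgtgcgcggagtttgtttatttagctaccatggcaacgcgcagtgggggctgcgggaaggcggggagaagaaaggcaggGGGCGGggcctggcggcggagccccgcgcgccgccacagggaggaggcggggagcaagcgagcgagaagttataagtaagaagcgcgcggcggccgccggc
Fos: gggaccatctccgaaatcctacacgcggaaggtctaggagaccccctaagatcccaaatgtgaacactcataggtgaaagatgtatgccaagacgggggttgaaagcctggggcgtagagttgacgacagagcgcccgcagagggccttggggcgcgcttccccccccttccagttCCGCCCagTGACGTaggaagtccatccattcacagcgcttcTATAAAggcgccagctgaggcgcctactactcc
Jun: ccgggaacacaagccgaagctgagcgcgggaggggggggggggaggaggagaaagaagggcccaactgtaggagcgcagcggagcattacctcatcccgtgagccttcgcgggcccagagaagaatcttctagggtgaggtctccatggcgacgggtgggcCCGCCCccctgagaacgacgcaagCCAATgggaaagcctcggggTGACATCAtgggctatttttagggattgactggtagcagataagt

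Matches were sought in RefSeq windows from 250 bases before to 50 after the start, for 8 of the 10 genes. No window of Egr1 or Ier2 was searched, so nothing is said of motifs there. The motifs were the AP-1 palindrome TGANTCA, the CRE palindrome TGACGTCA and its first 6 letters TGACGT, the octamer TGACATCA known from the Jun promoter, the TATA box TATAAA, the GC box GGGCGG and the CCAAT box, and by name the CArG box bound by serum response factor and the p53 consensus decamer. TGACGT lies inside TGACGTCA, so a full CRE would count for both. TGACATCA was found in the windows of Jun and Klf6 and in 3.62% of all 32851 windows. TGACGT was found in Fos and Atf3, and in 7.51% of all windows. GGGCGG was present in 7 of the 8 genes against 35.7% of all windows, and CCAAT in 5 of 8 against 37.4%. TATAAA was found in Fos and Junb, with 13.6% of all windows holding it. In Fos it begins 33 bases before the start, and in Junb at the annotated start itself. No match to TGANTCA, TGACGTCA, the CArG box or the p53 decamer was present in the 8 windows, and 7.81%, 1.79%, 1.63% and 8.36% of all windows held them. Bases more than 250 before the start were not searched, so these motifs may still be present further upstream. The windows of the 8 genes were rich in G and C, at 58.7% to 74.3% against a median of 52.7%. A match is a description of letters and no evidence of binding.

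Length-scaled levels, in TPM (counts per summed exon length, scaled to the same total in each library), put the genes in order within a library. In EV vehicle tumors the order ran from Junb at 213 ± 48.4 TPM (SD, n = 3) through Egr1 at 167 ± 20.0, Ier2 at 131 ± 24.4, Klf6 at 95.6 ± 14.8, Rhob at 94.5 ± 5.84 and Jun at 73.4 ± 7.75 to Fos at 31.1 ± 5.17 TPM. Atf3 at 19.1 ± 0.577, Klf4 at 5.31 ± 1.65 and Fosb at 1.19 ± 0.834 TPM came last. The means ± 1 SD of neighbours overlapped from Junb down to Rhob and were apart from Rhob downwards. In p53ERTAM combo tumors Rhob led with 376 ± 35.7 TPM, followed by Klf6 at 222 ± 1.59 and Junb at 222 ± 5.91, which could not be ordered. Egr1 at 142 ± 7.29, Ier2 at 115 ± 10.7, Jun at 83.2 ± 8.41 and Fos at 45.3 ± 6.83 TPM came next, and Fos overlapped with Atf3 at 43.6 ± 3.10 TPM. Klf4 at 15.5 ± 2.16 and Fosb at 5.52 ± 1.79 TPM were again the lowest. Rhob thus stood apart in the first place in p53ERTAM combo, which it did not in EV vehicle, while the same 4 genes had the lowest levels in both groups.

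**Figure D1:**
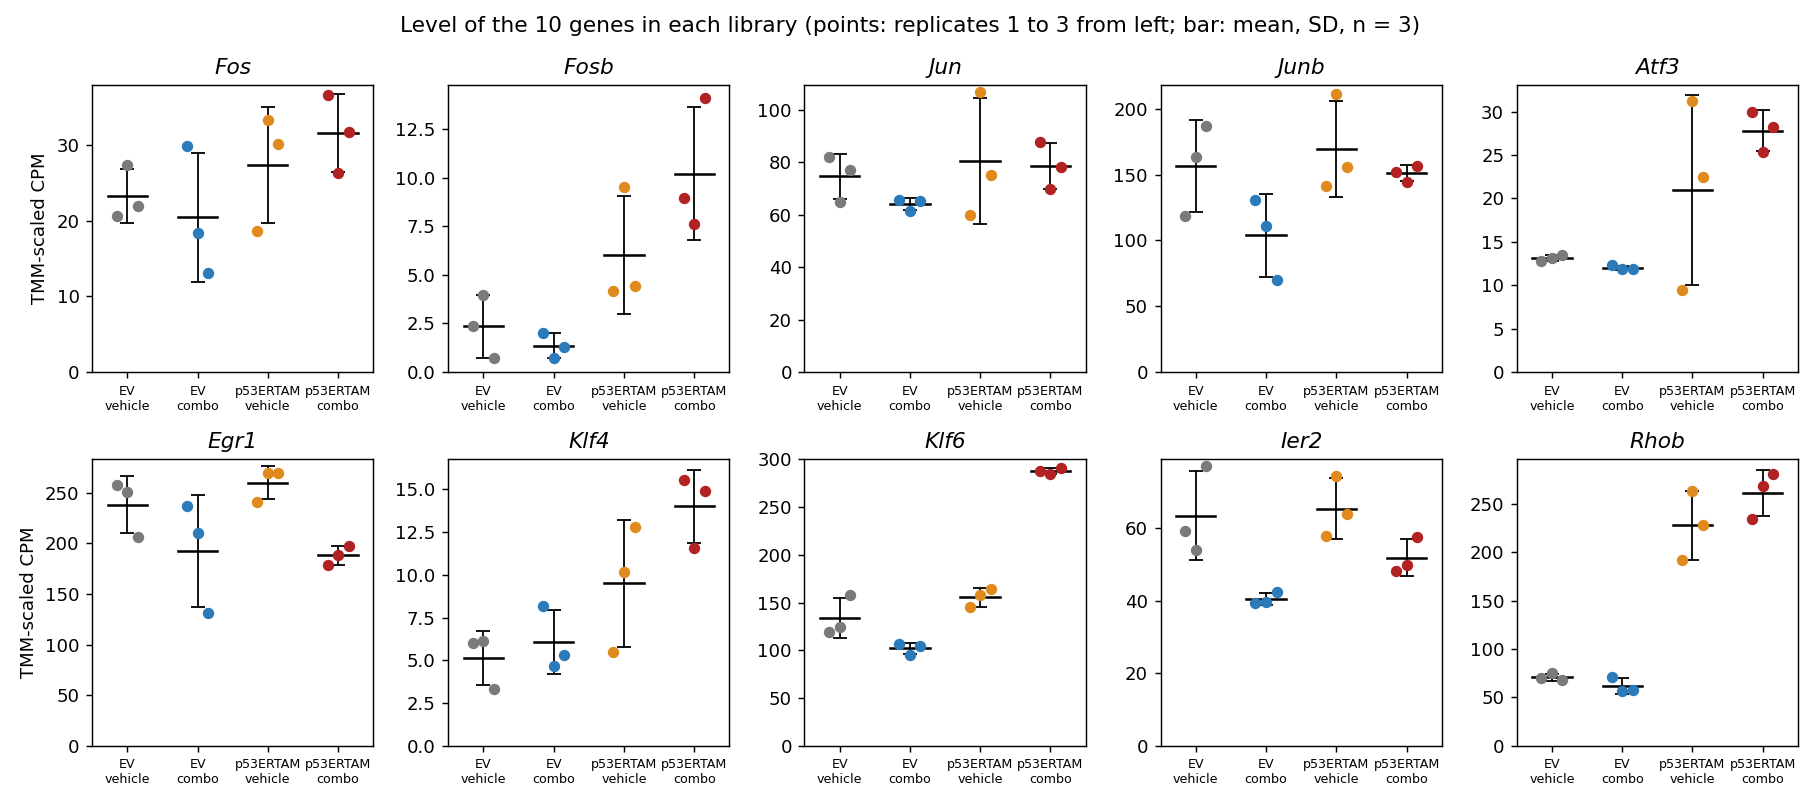
Level of each gene in CPM scaled by trimmed mean of M-values (TMM) in the 12 libraries, with points for replicates 1 to 3 from the left and bars for mean and SD (n = 3). Rhob is high in all 6 p53ERTAM libraries, Klf6 in the 3 p53ERTAM combo libraries, and Fos, Jun and Egr1 overlap between most groups.

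The Fos family was uneven. Fosb, whose protein pairs with Jun proteins and which was the least abundant of the 10, was measured at 2.37, 3.99 and 0.729 CPM in EV vehicle, 2.03, 0.722 and 1.31 in EV combo, 4.16, 9.53 and 4.43 in p53ERTAM vehicle and 8.93, 7.61 and 14.1 CPM in p53ERTAM combo. All 6 p53ERTAM libraries lay above all 6 EV libraries. Such a separation was seen for 6.78% of the 17970 genes tested. Under combo Fosb was 7.47-fold higher in p53ERTAM than in EV tumors, a log2 fold change of 2.90 (SE 0.566, edgeR quasi-likelihood test, Benjamini-Hochberg adjusted p = 0.00135). Under vehicle the log2 difference was 1.33 (SE 0.530, adjusted p = 0.0634), which did not pass the threshold of 0.05. These were small numbers, from 10 to 360 counts per library, so single libraries weighed heavily, and without EV vehicle replicate 2 the vehicle difference passed (adjusted p = 0.0177).

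Fos itself, the prototype subunit, was not called by edgeR with all libraries in any comparison. It was measured at 20.6, 27.3 and 21.9 CPM in EV vehicle, 29.9, 18.4 and 13.1 in EV combo, 18.7, 33.3 and 30.1 in p53ERTAM vehicle and 36.6, 26.3 and 31.8 CPM in p53ERTAM combo. Every pair of groups overlapped. The difference nearest to the threshold was that of p53ERTAM over EV under combo, with a log2 value of 0.63 (adjusted p = 0.0815). It stayed positive with each library left out, at 0.39 to 1.01. Among those fits it passed only without EV combo replicate 1 (1.01, adjusted p = 0.00962), and it also passed with voom (0.69, adjusted p = 0.0294).

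Neither Jun nor Junb, the partners of the Fos proteins, was called by edgeR with all libraries in any comparison. Jun stood at 81.9, 65.0 and 77.1 CPM in EV vehicle, 65.8, 61.6 and 65.4 in EV combo, 59.9, 107 and 75.1 in p53ERTAM vehicle and 87.7, 70.0 and 78.1 CPM in p53ERTAM combo. The EV combo and p53ERTAM combo libraries did not overlap, but the log2 difference of 0.29 did not pass the test (adjusted p = 0.191). Junb, a Jun protein that often restrains proliferation, stood at 118, 164 and 187 CPM in EV vehicle, 131, 111 and 69.6 in EV combo, 142, 211 and 156 in p53ERTAM vehicle and 152, 144 and 156 CPM in p53ERTAM combo. EV combo replicate 3 was the lowest of the 12. The log2 difference of combo from vehicle in EV was -0.59 (SE 0.223, adjusted p = 0.0503), just outside the threshold. It passed when EV vehicle replicate 1 (adjusted p = 0.0208), EV combo replicate 1 (0.0229) or p53ERTAM vehicle replicate 2 (0.0440) was left out. The difference between vectors under combo, 0.54 (adjusted p = 0.0651), passed with voom (adjusted p = 0.0202), with EV combo replicate 1 left out (0.75, adjusted p = 0.0262) and with EV vehicle replicate 1 left out (adjusted p = 0.0457). Exons of Junb share 173 of their 2301 bases with Prdx2 on the opposite strand, and those of Jun 232 of 3189 with the antisense gene Junos. Prdx2 was measured at 79.2 to 235.4 CPM and Junos at 1.14 to 3.83 CPM, and since the strand setting of the counting is not given in the sources used here, their reads may be split uncertainly.

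Atf3, induced by DNA damage and by the unfolded protein response, was nearly constant in EV tumors and higher in most p53ERTAM tumors. It was measured at 12.8, 13.1 and 13.5 CPM in EV vehicle, 12.3, 11.8 and 11.8 in EV combo, 9.41, 31.2 and 22.4 in p53ERTAM vehicle and 29.9, 25.3 and 28.2 CPM in p53ERTAM combo. The 3 p53ERTAM combo libraries and 2 of the p53ERTAM vehicle libraries lay above all 6 EV libraries, while p53ERTAM vehicle replicate 1 was the lowest of the 12. Under combo Atf3 was 2.32-fold higher in p53ERTAM than in EV tumors (log2 1.21, SE 0.299, adjusted p = 0.00587). Under vehicle the log2 difference was 0.67 (SE 0.297, adjusted p = 0.0929), and it turned on single libraries. It was 1.04 without p53ERTAM vehicle replicate 1 (adjusted p = 0.000914), 0.27 without p53ERTAM vehicle replicate 2 (adjusted p = 0.482) and 0.015 with voom, which gives libraries weights (adjusted p = 0.977).

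Of the zinc-finger genes, Klf4, a regulator of epithelial differentiation and of the cell cycle, was higher in p53ERTAM tumors under combo. Klf4 was measured at 6.01, 6.13 and 3.33 CPM in EV vehicle, 8.18, 4.69 and 5.29 in EV combo, 5.50, 10.2 and 12.8 in p53ERTAM vehicle and 15.5, 11.5 and 14.9 CPM in p53ERTAM combo. The combo groups did not overlap, while p53ERTAM vehicle replicate 1 lay within the EV range. Klf4 was 2.31-fold higher in p53ERTAM than in EV under combo (log2 1.21, SE 0.330, adjusted p = 0.00982). Under vehicle the log2 difference was 0.87 (SE 0.331, adjusted p = 0.0518), which 7 of 20 alternatives moved past the threshold.

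Klf6, a tumor-suppressor Krüppel-like factor, was high in a single group. It was measured at 119, 125 and 158 CPM in EV vehicle, 106, 95.3 and 104 in EV combo, 145, 158 and 164 in p53ERTAM vehicle and 288, 285 and 291 CPM in p53ERTAM combo. The p53ERTAM combo libraries had an SD of 2.97 CPM and lay above the other 9. The log2 values, as a description of a gene chosen for this rise, were 0.89 for combo over vehicle in p53ERTAM, 0.22 for p53ERTAM over EV under vehicle and 1.498 for p53ERTAM over EV under combo. In EV tumors, which the rule did not name, the direction was the opposite, with a log2 change of -0.39 (SE 0.110, adjusted p = 0.0125). The same EV combo libraries form the lower side of the p53ERTAM over EV difference, so the fall is not independent of the choice. It did not pass when the test was limited to protein-coding genes (-0.26, adjusted p = 0.0716) or without EV vehicle replicate 3 (-0.23, adjusted p = 0.0884).

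Egr1, a zinc-finger activator of growth and stress genes, was among the most abundant of the 10 and was not called by edgeR with all libraries in any comparison. It stood at 258, 250 and 206 CPM in EV vehicle, 237, 210 and 131 in EV combo, 241, 269 and 269 in p53ERTAM vehicle and 179, 188 and 197 CPM in p53ERTAM combo. In p53ERTAM tumors the combo libraries all lay below the vehicle libraries, with a log2 change of -0.47 (SE 0.170, adjusted p = 0.113). It passed without EV combo replicate 3 (adjusted p = 0.0332) and without the whole EV combo group (adjusted p = 0.0415), libraries that are on neither side of this comparison. In EV the change was -0.31 (adjusted p = 0.167), and it was -0.49 without EV combo replicate 1 (adjusted p = 0.0498). Between vectors the log2 values were 0.13 under vehicle and -0.032 under combo.

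Rhob, an endosomal small GTPase known to be induced by DNA damage, was high in all p53ERTAM libraries, under either treatment. It was measured at 69.6, 74.7 and 67.9 CPM in EV vehicle, 71.2, 56.4 and 57.2 in EV combo, 192, 263 and 228 in p53ERTAM vehicle and 234, 268 and 280 CPM in p53ERTAM combo. All 6 p53ERTAM libraries lay above all 6 EV libraries. As a description of a gene chosen for this rise, Rhob was 3.22-fold higher in p53ERTAM under vehicle (log2 1.69) and 4.24-fold higher under combo (log2 2.08). Combo over vehicle was 0.20 in p53ERTAM on the log2 scale. In EV tumors the change was -0.20 (SE 0.130, adjusted p = 0.242), which did not pass.

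Ier2, a short-lived nuclear regulator encoded by a single exon, fell with combo in EV tumors. It stood at 59.2, 54.1 and 77.3 CPM in EV vehicle, 39.4, 39.7 and 42.3 in EV combo, 57.8, 74.5 and 64.1 in p53ERTAM vehicle and 48.1, 49.8 and 57.7 CPM in p53ERTAM combo. The EV combo libraries were the 3 lowest of the 12 and close to each other. The log2 change in EV was -0.65 (SE 0.143, adjusted p = 0.00337), or 1.57-fold lower, and it passed in all 19 alternatives run. In p53ERTAM tumors the change was in the same direction, -0.33 (SE 0.142), and did not pass (adjusted p = 0.165). The difference between these changes, 0.31, did not pass either (adjusted p = 0.237), so the fall is not shown to be particular to EV tumors. Between vectors under combo the difference was 0.36 (adjusted p = 0.0562), and it passed in 4 of the 19 alternatives.

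As a group, the genes were called at a share near or under that of all genes when combo was set against vehicle. In EV, 2 of 10 were lower (Ier2 and Klf6), while 21.1% of all genes tested were lower, 18.8% higher and 39.9% either. Atf3, Klf6 and Ier2 had groups that did not overlap, all lower, where 26.9% of all genes did so in that direction and 23.6% in the other. The median log2 change of the 10 was -0.26, beside -0.067 for all genes and -0.13 for protein-coding genes. In p53ERTAM tumors none of the 8 genes that were not picked for their rise was called, where 6.28% of all genes were called, 3.3% higher and 2.98% lower. Among these 8, 2 had an unadjusted p under 0.05, DESeq2 called 0 and limma's voom with quality weights called 3. Of all 17970 genes DESeq2 called 2334 and voom 3748, where edgeR called 1129. Egr1 and Ier2 lay without overlap below vehicle, as 15.4% of all genes did, and none of the 8 lay above, as 17.6% did. The median of the 8 was 0.09, beside 0.0050 for all genes.

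Between vectors, calls among the 8 genes came under combo, though the test of the change in the vector difference, given in the next paragraph, called none of them. Under vehicle none of the 8 was called, although 37.8% of all genes were, 17.9% higher and 19.8% lower. For the 8, 3 had an unadjusted p under 0.05, DESeq2 called 2 (Fosb and Klf4) and voom called 0. Of all 17970 genes DESeq2 called 7409 and voom 5970. Fosb was the 1 gene of the 8 whose groups did not overlap, on the higher side, where 21.7% of all genes lay higher and 24% lower. Under combo Fosb, Atf3 and Klf4 were higher, 3 of 8, where 44.1% of all genes were called, 22.1% higher and 22% lower. These 3 calls held in all 19 alternatives run, with log2 values of 2.60 to 3.31 for Fosb, 1.09 to 1.28 for Atf3 and 1.06 to 1.49 for Klf4. Fosb, Jun, Junb, Atf3, Klf4 and Ier2, 6 of 8, lay without overlap above EV, where 32.3% of all genes did so and 29.4% lay below. The median log2 difference of the 8 was 0.58 under combo and 0.18 under vehicle, beside 0.062 and 0.0062 for all genes. The vector comparisons share no library with each other, but each shares a group with each treatment comparison.

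The test of whether the combo effect differed between vectors called none of the 8, where 36% of all genes were called, 18.8% with a positive and 17.2% with a negative value. None of the 8 had an unadjusted p under 0.05, DESeq2 called 0 and voom called 1. Of all 17970 genes DESeq2 called 6929 and voom 7185. Fosb had the highest value, 1.57 (SE 0.760, adjusted p = 0.124), and it passed without EV vehicle replicate 3 (1.97, adjusted p = 0.0268). All of the 8 but Egr1 had a positive value, with a median of 0.37, and the median of all genes was itself 0.13, or 0.23 among protein-coding genes. Klf6, as a description, had a value of 1.28 and Rhob of 0.40.

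**Figure D2:**
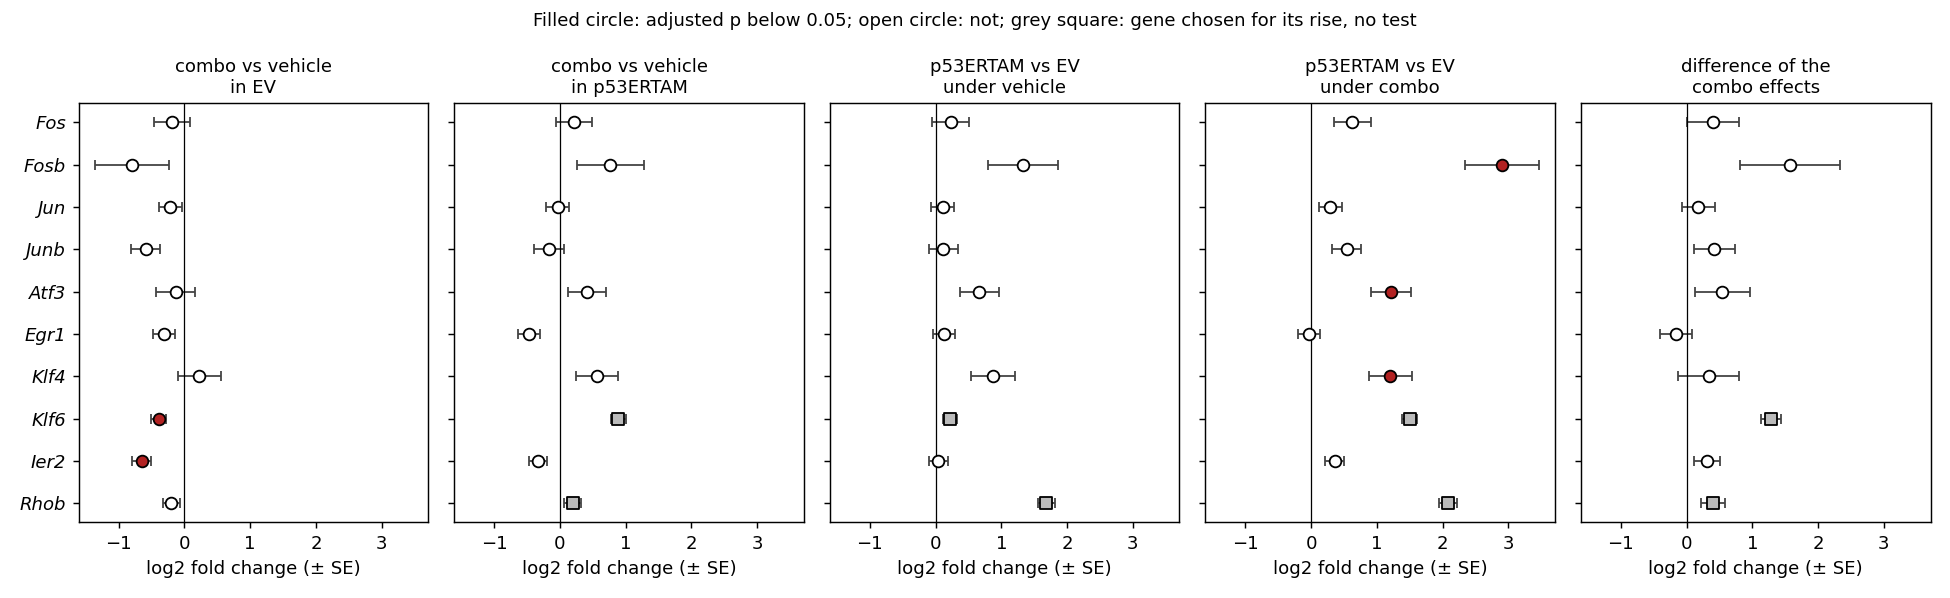
log2 fold change ± SE of each gene in the 4 comparisons and in the difference of the combo effects (p53ERTAM minus EV). Filled circles passed an adjusted p of 0.05 in edgeR, open circles did not, and grey squares are Klf6 and Rhob where they were chosen for their rise; the filled circles are Klf6 and Ier2 in EV, and Fosb, Atf3 and Klf4 between vectors under combo.

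In every group but EV vehicle, 1 library was the highest or the lowest of its group for most of the genes. p53ERTAM vehicle replicate 1 was the lowest of its group for 10 of 10 genes, where 27.3% of all genes tested were lowest there. Replicate 2 of that group was the highest for 8 of 10, with no share of all genes taken. It held 13484873 counts, with 86.7% in protein-coding genes against 92.3% and 94.0% in replicates 1 and 3. Its 10 fibroblast markers summed to 3875 CPM against 1551 and 1643. Which library was the unusual one was not tested. EV combo replicate 1 was the highest of its group for 9 of 10, where 32.8% of all genes were highest there. In EV vehicle the lowest values were spread as 4, 2 and 4 genes over replicates 1 to 3. In p53ERTAM combo they were spread as 3, 7 and 0, so replicate 2 was the lowest for 7 of 10. The share of all genes lowest in that library was not taken. These libraries were picked out with the values in view. The mean z-score of the 8 genes, taken over the 12 libraries from log2(CPM + 0.5), summarises this. It was -0.113, -0.0157 and -0.168 in EV vehicle, -0.309, -0.957 and -1.41 in EV combo, -0.396, 1.27 and 0.604 in p53ERTAM vehicle and 0.618, 0.192 and 0.684 in p53ERTAM combo. EV vehicle libraries lay close together, while those of p53ERTAM vehicle spread from below EV vehicle to the highest of all. EV combo lay below each other group except that its replicate 1 was above p53ERTAM vehicle replicate 1.

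**Figure D3:**
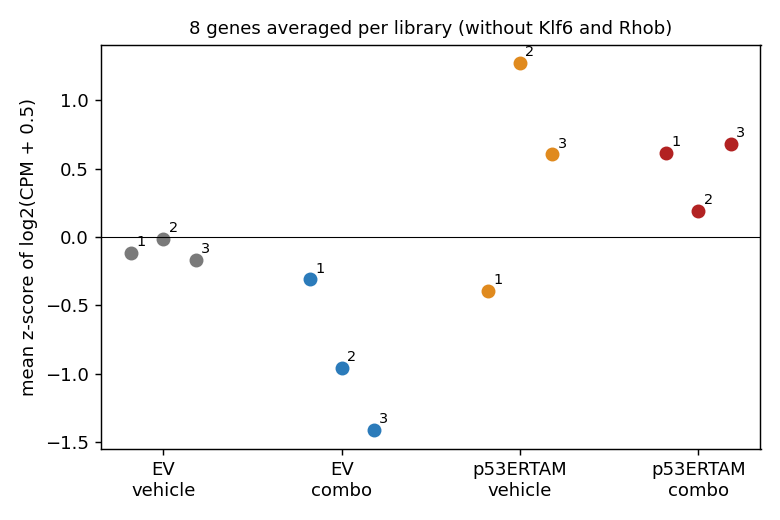
Mean z-score of the 8 genes (without Klf6 and Rhob) in each library, with replicate numbers beside the points and no error bar because each point is 1 library. The 3 p53ERTAM combo libraries lie between 0.192 and 0.684, the EV combo libraries between -1.41 and -0.309, and the p53ERTAM vehicle libraries span -0.396 to 1.27.

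Over all 12 libraries, Fos followed this mean most closely of the 8 (Pearson r = 0.886) and Egr1 least (0.499), each being part of the mean. Rhob and Klf6, which are not part of it, had r = 0.785 and 0.659. Of 12786 other genes ranked, the most alike were Ppp1r15a, which encodes a phosphatase subunit of the stress response, at r = 0.951, then Zc3h10 at 0.931, Angptl6 at 0.916, the glucose transporter gene Slc2a1 at 0.914 and the ferritin gene Fth1 at 0.913. All of these values share the same libraries and depths and are descriptions.

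Markers of other cells differed between the same groups, not always with the genes. The summed level of 10 macrophage markers was 374 to 807 CPM under vehicle and 440 to 622 under combo in EV tumors, and 718 to 788 under vehicle and 1449 to 2122 CPM under combo in p53ERTAM tumors. Of these markers 9 of 10 were called higher in p53ERTAM than in EV under combo, where 22.1% of all genes were higher. Fosb, Atf3 and Klf4 were called in the same comparison. The 8 endothelial markers summed to 49.6 to 106, 103 to 180, 145 to 211 and 178 to 262 CPM in the same order of groups, and the 10 fibroblast markers to 581 to 643, 1146 to 2095, 1551 to 3875 and 1483 to 2207 CPM. Under vehicle 6 of the 8 and 7 of the 10 were called higher in p53ERTAM, beside 17.9% of all genes. Under combo 5 of the 8 and 2 of the 10 were, beside 22.1%, so the fibroblast count there was near that share. In EV 7 of the 10 fibroblast markers rose with combo, beside 18.8% of all genes, where Ier2 and Klf6 fell. Of the 7 T and NK cell markers tested 5 were higher in p53ERTAM under combo, beside 22.1% of all genes. Their levels were low, and the 9 markers listed summed to 2.66 to 7.80 CPM in EV combo and 25.1 to 30.4 in p53ERTAM combo. Under vehicle they summed to 11.6 to 13.3 CPM in p53ERTAM and 3.80 to 38.8 in EV, where replicate 2 was the highest of all libraries. The epithelial and mammary markers were lower in p53ERTAM vehicle, at 1619 to 2109 CPM, than in EV vehicle, at 3190 to 4098 CPM. Under combo the sums overlapped, at 2058 to 2549 CPM in EV and 2040 to 2526 CPM in p53ERTAM tumors. No macrophage, endothelial, fibroblast or epithelial marker was at 0 throughout a group, and the part of these cells in the results was not tested.

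Other genes of the pathway were often higher in p53ERTAM under combo, as Fosb, Atf3 and Klf4 were. Their lists, too, were drawn up with earlier results known. Some lists share genes, so their counts are not independent. Btg2 and Plk2 are both immediate-early genes and p53 targets here, and Klf2 and Klf10 both immediate-early and KLF genes. Of 9 other AP-1 and related subunits, 5 were higher in p53ERTAM than in EV under combo (median log2 0.51), beside 22.1% of all genes. Under vehicle 2 were higher and 1 lower, beside 17.9% and 19.8% of all genes. Fosl1, a Fos-related subunit linked to invasion, was higher under vehicle (log2 1.56, adjusted p = 0.0366) and under combo (1.59, adjusted p = 0.0261), as was Fosl2 (0.57 and 0.37, adjusted p = 0.00547 and 0.0374). Of the 12 fits that leave out a library, 4 lost the call of Fosl1 under vehicle, 4 that under combo (range 1.17 to 2.49) and 4 that of Fosl2 under combo, which was 0.22 without EV combo replicate 3. With combo in EV 3 of the 9 fell, beside 21.1% of all genes. Jund, the Jun subunit of resting cells, was among them (-0.86, adjusted p = 0.0172). Its difference between vectors under combo was 0.85 (adjusted p = 0.0166). The first call was lost in 3 of the 12 fits (-0.43 without EV vehicle replicate 3, adjusted p = 0.0826) and the second in 2.

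Of 37 other immediate-early genes 36 were tested. In p53ERTAM against EV, 18 were higher and 2 lower under vehicle, and 24 were higher and 4 lower under combo, with medians of 0.43 and 0.83. All genes tested had 17.9% higher under vehicle and 22.1% under combo. Under combo the log2 difference was 1.25 for Btg2, an antiproliferative gene that is also on the p53 target list (adjusted p = 0.000426). It was 0.83 for Tob1 of the same family (adjusted p = 0.00217). Ccn2, which encodes a matricellular growth factor, had 2.08 (adjusted p = 8.36e-06). Combo against vehicle moved fewer of them. In EV 5 were lower, where 21.1% of all genes were, and in p53ERTAM 2 were higher, where 3.3% of all genes were.

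Among 17 feedback inhibitors, which shut off the signal or degrade the mRNAs, 10 fell with combo in EV, 11 were higher in p53ERTAM under combo, and 7 had a positive difference of the combo effects, beside 21.1%, 22.1% and 18.8% of all genes. Zfp36, whose protein targets the decay of short-lived mRNAs, had a log2 change of -0.70 in EV (adjusted p = 0.000506) and a difference of 1.04 (adjusted p = 0.000607). Dusp5, a MAP kinase phosphatase gene, had -1.62 (adjusted p = 0.000131) and 1.495 (adjusted p = 0.00133). Of 20 upstream kinases and serum response factor genes, 10 fell with combo in EV and 8 were lower in p53ERTAM under vehicle, beside 21.1% and 19.8% of all genes. In EV the log2 change was -0.43 for Mapk9, a JNK kinase gene (adjusted p = 0.0144), a call lost in 4 of the 12 fits that leave out a library.

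Downstream, 16 of 18 AP-1 target genes were tested, and 10 were higher and 1 lower in p53ERTAM than in EV under combo, against 4 and 1 under vehicle, where 22.1% and 17.9% of all genes were higher. Plau, which encodes the urokinase protease, was among those higher under combo (0.79, adjusted p = 0.00364). In the family of Klf4 and Klf6, 6 of 11 other KLF genes were higher in p53ERTAM under combo and 3 under vehicle, beside the same shares of all genes. Of 12 heat-shock chaperone genes, which rise with stress and handling, 7 fell with combo in EV, where 21.1% of all genes fell. The 2 of 12 that were higher in p53ERTAM under combo are a share under the 22.1% of all genes. Of 20 p53 target genes 17 were higher in p53ERTAM under combo and 7 under vehicle, beside 22.1% and 17.9% of all genes.

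**Figure D4:**
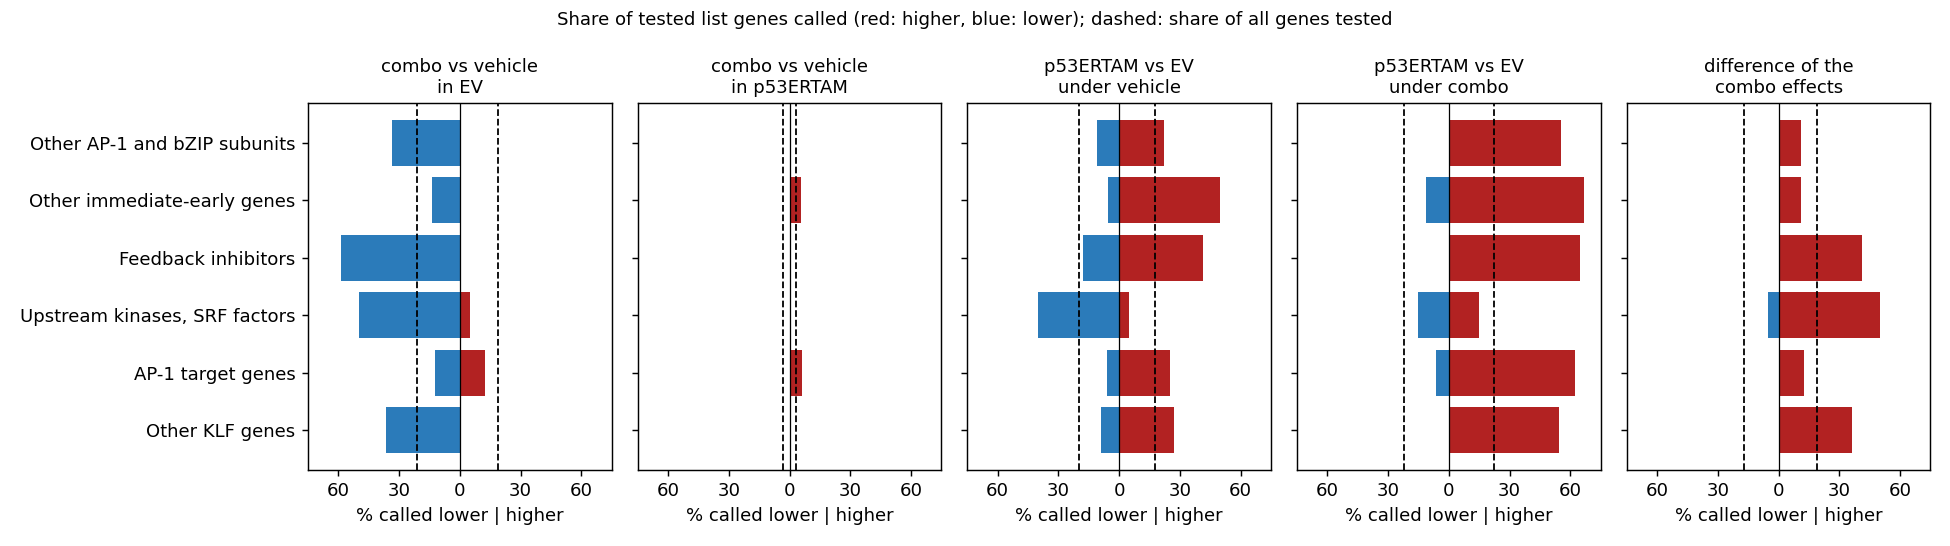
Share of the tested genes of each list called higher (red, right) or lower (blue, left) in percent, for the 4 comparisons and the difference of the combo effects. Dashed lines mark the shares of all 17970 genes tested. Of the 6 lists plotted, the upstream list (3 of 20) is under the line on the higher side in p53ERTAM against EV under combo, and the other immediate-early genes (24 of 36) are above it.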

How the data were processed

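RNA of bulk tumors was sequenced in 12 samples from ribosomal RNA-depleted, stranded libraries, per the labels' protocols. The authors deposited unnormalised counts per gene, made with fastp, STAR and featureCounts on GRCm38.p5, per the submitters' processing notes. Symbols came from the GENCODE annotation for 52489 of 52636 gene identifiers. Counts from 1 to 20 were even in 66.3% to 71.7% of cases, a pattern that counting each mate of a read pair gives.

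Counts were scaled by TMM and tested with edgeR 4.0.16 in R 4.3.3 (filterByExpr, which left 17970 genes, and a robust quasi-likelihood F-test) over 4 group means and 12 libraries, with Benjamini-Hochberg adjustment over all genes and a threshold of 0.05. Fold changes are fitted log2 values. Alternatives were DESeq2 1.42.0, voom (limma 3.58.1), other scaling, filters and gene sets, a replicate block and each library left out, and, added after seeing the data, GC and length offsets. The procedure was tested on simulated counts. The 10 genes and all lists were chosen with earlier results of these data known. All 10 are named, with, from each list, the genes of smallest p in the difference of combo effects and Fosl1, Fosl2 and Jund. Some results of these lists are not reported here.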

Additional observations from a re-analysis of the deposited data

Results flagged for a closer look

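The combo effect differed between p53ERTAM and EV tumors, by the test of that difference over all genes (edgeR, adjusted p below 0.05), for the genes given here with the log2 difference, p53ERTAM minus EV. These genes were named for small p in this test, and all their values are positive. Among genes left unnamed, Mrtfa of the upstream list was called at -0.41 (adjusted p = 0.0414). Of all genes 36% were called, 18.8% with a positive and 17.2% with a negative value. The median over all genes was itself 0.13, or 0.076 with DESeq2 size factors. Of the 10 genes, Klf6 had 1.28, with no independent test since it was picked for its rise. The others belong to the related lists. Some of these calls were not stable when a library was left out, with the call lost in 10 of 12 such fits for Btg2, 9 for Batf, 6 for Klf5, 3 for Klf13, 2 each for Ccn2 and Plau and 1 for Sgk1. Batf, an AP-1 partner of lymphocytes, had 1.23. Among immediate-early genes the values were 1.39 for Tob1, 0.93 for Ccn2, 0.82 for Btg2 and 0.60 for Sgk1. Of the feedback inhibitors, Dusp5 had 1.495, Zfp36 1.04, Nab1 0.85 and Dusp6 0.77. The upstream kinases gave 0.86 for Rps6ka3, 0.79 for Map2k4 and 0.70 for Mapk9, and the AP-1 targets 0.87 for Tgfb1 and 0.86 for Plau. Of other KLF genes Klf9 had 1.19, Klf5 0.89, Klf16 0.74 and Klf13 0.55. Chaperone genes had 0.97 (Hspb8), 0.96 (Hspe1), 0.90 (Hsp90aa1) and 0.78 (Hspa8), and p53 targets 1.80 (Ccng1), 1.54 (Ephx1), 1.46 (Fas) and 0.92 (Perp).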

How the results depend on the processing

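With settings other than leaving out a library, 719 single-gene values kept direction and side of the threshold, 24 no longer passed it, 17 newly passed it, 7 reversed and 4 values without a test moved by more than the replicate spread. The number of the 10 genes called moved as follows, where the counts in comparisons with p53ERTAM include Klf6 and Rhob, picked for their rise there. For p53ERTAM over EV under vehicle it was 2 with DESeq2 size factors, 3 with DESeq2, 2 with no filter and 3 with protein-coding genes only (1, 2, 1 and 1 of the 8 other genes). For combo in p53ERTAM it was 4 with voom and 2 without the EV combo group (3 and 1 of the 8), for p53ERTAM over EV under combo 8 with voom (6 of the 8), for the difference of combo effects 3 with voom (1 of the 8), and for combo in EV 1 with protein-coding genes only. Genes called for combo in p53ERTAM numbered 2334 with DESeq2, 3748 with voom and 627 without the EV combo group. The main edgeR fit gave 1129. Between vectors under combo, voom called 10084 of 17970 genes, where the main fit called 7918. Under vehicle, 6709 were called with DESeq2 size factors and 7409 with DESeq2. With no filter it was 6057 of 31622, and with protein-coding genes only 5575 of 13929. For the difference, voom called 7185, against 6473 in the main fit. With protein-coding genes only, 4086 were called for the difference and 4991 for combo in EV. Directions turned for Jun (0.23 for combo in p53ERTAM, -0.095 between vectors under vehicle) and Fos (-0.086, vehicle) with voom, for Jun in the difference (-0.0087) with protein-coding genes only, and with GC and length offsets for Junb (0.011 for combo in p53ERTAM, -0.094 under vehicle) and Ier2 (-0.048, vehicle). The cause was not tested.

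Leaving out each library gave 1 to 4 of the 10 genes for combo in EV, 1 to 2 for combo in p53ERTAM, 1 to 3 between vectors under vehicle, 5 to 7 under combo and 1 to 2 for the difference. Without Klf6 and Rhob these were 1 to 3, 0 to 1, 0 to 2, 3 to 5 and 0 to 1 of 8. Over all single-gene values 63 calls were lost and 22 gained in these fits. Genes called for combo in p53ERTAM ran from 77 (without p53ERTAM combo replicate 1) to 2130 (without p53ERTAM vehicle replicate 3). They ran from 5669 to 7662 for combo in EV and from 4901 to 6834 for the difference. Between vectors the range was 4921 to 6707 under vehicle and 5912 to 8640 under combo. Values that crossed 0 were those of Egr1 (-0.37 to 0.020 for the difference, -0.25 to 0.15 between vectors under combo), Fos (-0.57 to 0.053 for combo in EV), Klf4 (-0.049 to 0.41 for combo in EV) and Ier2 (-0.057 to 0.23, vehicle). Jun (-0.21 to 0.22 for combo in p53ERTAM, -0.017 to 0.44 for the difference, -0.14 to 0.31 under vehicle) and Junb (-0.28 to 0.021 and -0.069 to 0.29 for combo in p53ERTAM and under vehicle) did the same.

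No clear pairing by replicate number was seen, which 3 libraries per group cannot exclude. Same-numbered libraries had correlations of -0.194 to 0.344, and differently numbered ones -0.405 to 0.219. Of the 12 libraries, 3 correlated best with their own number. With a replicate block the genes called were 6789, 970, 6341, 7639 and 6001 for combo in EV, combo in p53ERTAM, the vectors under vehicle, under combo and the difference. The block gave 2, 1, 1, 6 and 1 of the 10 genes, the added one being Ier2 under combo (adjusted p = 0.0498). Without Klf6 and Rhob these were 1, 0, 0, 4 and 0 of 8. Counts as low as 10 limit the precision for Fosb.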
